A study of Mus musculus with 8 samples.

Results

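Gene expression in the liver of pregnant mice was compared with that in the liver of late-gestation fetuses, using only the control group, in which the pregnant mice ate freely. The comparison rests on the control channels of 4 of the 8 Agilent 2-colour arrays of the series: 2 arrays that carry the same pool of maternal liver RNA and 2 that carry the same pool of fetal liver RNA, once labelled with Cy3 and once with Cy5 in each case. The maternal pool held liver RNA of 6 pregnant C57BL/6J mice and the fetal pool that of 6 male fetuses, all collected on gestation day 18 after free access to CE-2 chow and water. The other channel of every array carried RNA of food-restricted mothers or of fetuses of such mothers. These mothers received 50% of the control food from gestation day 10 to 17. Values of that channel were not used in the main comparison. The processed signals had been dye-normalized by the array software, a step that can draw on both channels of an array. Each channel was labelled from 1000 ng of RNA, and 2 male fetuses were collected from each of 6 mothers; which mothers contributed to a given fetal pool is not stated in the sources used here. By title and source name both arrays of a dye exchange carry the same pool. Array descriptions that also mention rat hippocampus name a Pool 2 instead, and pools were read here from the titles.

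There was 1 pool a group, so the comparison has no biological replicate, and no test was made. The agreement between the Cy3 and the Cy5 difference is technical error only. The mothers were adult, female and pregnant and the fetuses were male, so that age, pregnancy, sex, RNA pool and array position cannot be told apart. In bulk RNA, fewer cells of a type and less RNA per cell cannot be told apart either.

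The liver of a mouse fetus shortly before birth is both a metabolic and a blood-forming organ. Erythroid, myeloid and megakaryocytic precursors lie among dividing hepatoblasts and hepatocytes, which secrete alpha-fetoprotein and insulin-like growth factor 2. Around and after birth blood formation moves to the bone marrow, hepatocytes stop dividing, and the enzymes of drug, bile acid and amino acid metabolism accumulate, in part in distinct zones between the portal and the central vein. In adult mice a further set of liver genes differs between the sexes under the pattern of growth hormone secretion.

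All 4 channels were measured as log2 of the processed signal, quantile normalized over the channels, and each difference is maternal minus fetal within a dye, averaged over both dyes. A gene was called when it differed at least 2-fold in the same direction on both dyes. Of 41174 probes, 8343 could not be assigned to a gene. After the filter on dim probes 17053 autosomal genes were left, and 15604 of these were measured in both livers. In 1406 genes the maternal channels, and in 43 the fetal channels, were not well above background on either array, and such genes have only a bound. There the brighter group was set against, per channel, the higher of the lowest signal among probes well above background and the gene's own signal, and the fold is given as "at least". A further 1048 genes were well above background on 1 of 2 maternal arrays. The fetal channels were brighter, with median processed signals of 800 and 854 against 382 and 408 in the maternal channels, and 81.4% and 83.8% of probes well above background against 65.7% and 72.1%. The lowest log2 signal well above background was 7.32 and 6.68 in the maternal and 5.30 and 5.06 in the fetal channels, so bounds reach less far where the mothers are dim. The Cy3 and Cy5 differences lay within 1 log2 unit of each other in 96.6% of measured genes, and the SD of their mean was 0.24.

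Genes of the sex chromosomes were used only to check the labels. Xist, the RNA that silences an X chromosome in females, gave 15.92 and 15.84 in the maternal channels (Cy3 and Cy5) and 5.04 and 6.58 in the fetal channels. The Y-linked gene Eif2s3y gave 5.06 and 4.61 in mothers, not well above background, and 14.02 and 14.44 in fetuses. The brighter probe of a further Y-linked gene, Ddx3y, gave 4.07 and 11.10 in mothers and 11.14 and 11.60 in fetuses, so its maternal dyes disagreed, while the other Ddx3y probe had means of 4.17 and 13.95.

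Of the autosomal genes, 2323 were called higher in mothers (13.6%) and 2585 higher in fetuses (15.2%), so 28.8% were called in either direction. At least 16-fold on both dyes separated 183 genes higher in mothers (1.07%) and 306 higher in fetuses (1.79%). The median difference was 0, with quartiles of -0.66 and 0.61. Genes with only a bound count as 0 there where the bound gave no fold. Among genes well above background in all 4 control channels the median was 0.06. Mothers made up 47.3% of the calls; this share was 65.2% when channels were scaled to their median (3889 higher in mothers, 2072 in fetuses) and 15.5% with no scaling (1077 and 5865), so the balance between directions depends on the scaling. Ranges over the 5 scalings below are over quantile, normexp with loess and Aquantile, 75th percentile, median and no scaling, under which the median of all genes lay between -0.73 and 0.26. The normexp setting normalized both channels of an array together, so values of the food-restricted channel entered it directly.

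**Figure D1:**
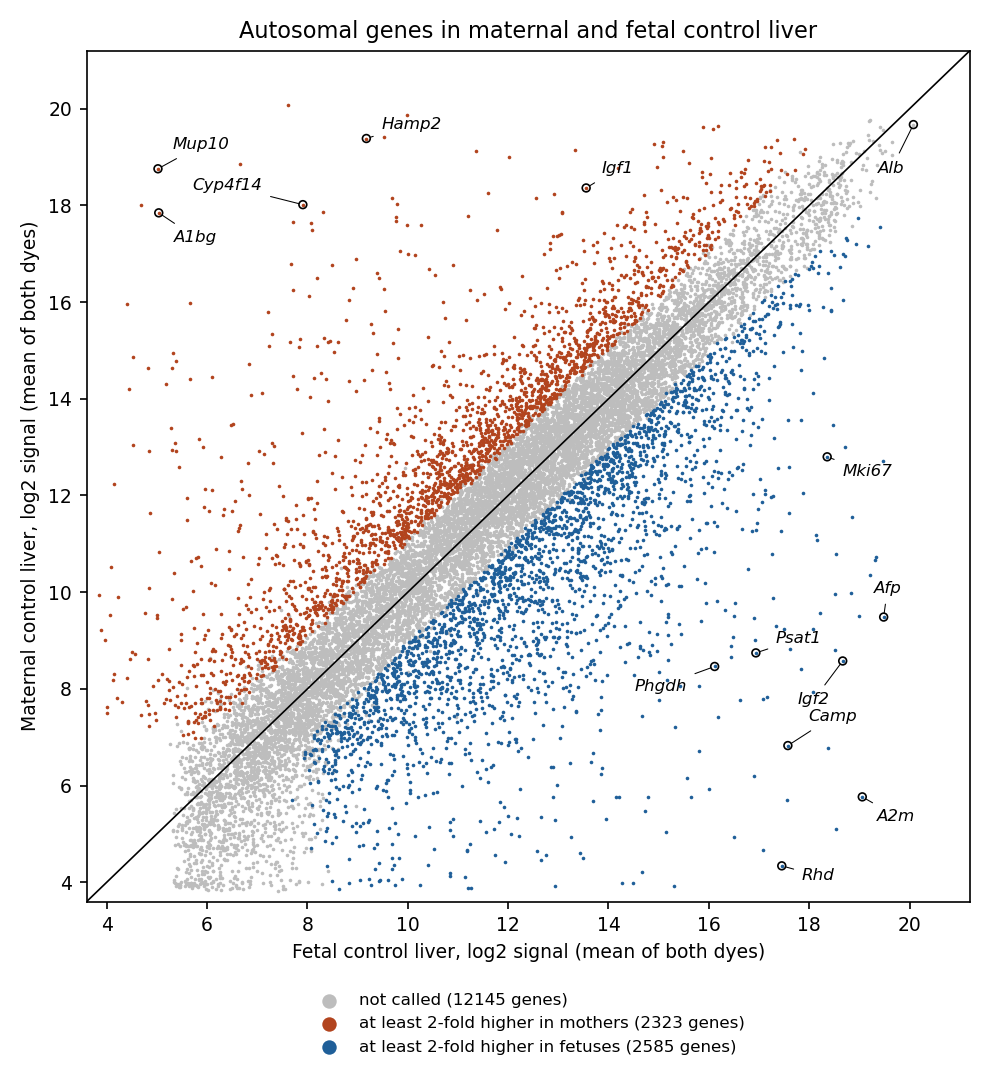
Mean log2 signal of 17053 autosomal genes in fetal control liver (x axis) and maternal control liver (y axis), each point a gene and the line equality. Red points are the 2323 genes called higher in mothers and blue points the 2585 called higher in fetuses; Afp, Igf2, A2m and Rhd lie far below the line, Mup10, A1bg and Hamp2 far above it, and Alb close to it.

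Alpha-fetoprotein was among the genes that separated the livers most. The Afp signal (probe at chr5:90937781-90937840, mm9) was 9.41 and 9.56 in the maternal channels and 19.37 and 19.60 in the fetal channels. Both fetal channels stood far above both maternal ones, a 1023-fold difference (993-fold on Cy3 and 1053-fold on Cy5). Its neighbour and relative Alb, which encodes serum albumin (probe at chr5:90901598-90901657), gave 19.25 and 20.09 in mothers and 19.56 and 20.60 in fetuses. Alb, a defining gene of hepatocytes, was thus high in all 4 channels. On each dye it was slightly higher in fetuses, the pools overlapped only across dyes, and Alb was not called (1.32-fold higher in fetuses). The promoters of these neighbours are shown because the genes lie next to each other and differed by unlike amounts. They are the 120 bases before the RefSeq start (GRCm38.p6, + strand), at chr5:90460750-90460869 for Alb and chr5:90490594-90490713 for Afp, with GTTAAT in capitals, as well as the CCAAT box on either strand (on the other strand it reads ATTGG) and, for Afp, the TATAAA box.
Alb: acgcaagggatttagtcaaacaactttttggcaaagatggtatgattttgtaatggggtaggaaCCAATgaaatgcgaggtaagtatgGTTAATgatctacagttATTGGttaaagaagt
Afp: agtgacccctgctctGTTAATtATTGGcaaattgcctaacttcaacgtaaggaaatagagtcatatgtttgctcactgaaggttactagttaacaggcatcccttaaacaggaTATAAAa
Both windows hold GTTAAT and CCAAT. Among 10957 autosomal genes with a single promoter in the RefSeq table, 5.62% held GTTAAT and 38.7% held CCAAT within 250 bases before to 50 bases after the start.

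Of 19 autosomal genes listed as oncofetal or fetal hepatocyte genes, 14 were called higher in fetuses and 1 higher in mothers, with a median difference of -2.64. In mothers 3 of the 19 were not well above background and entered through the fetal signal. Of 15 well above background in all 4 control channels, 11 were higher in fetuses. Spink1, a secreted trypsin inhibitor, was 440-fold higher in fetuses, and Dlk1, a membrane protein of hepatoblasts, was 457-fold higher. The RNA-binding protein gene Igf2bp3 was at least 124-fold higher and Lin28b, which blocks maturation of let-7 microRNAs, at least 19.1-fold. Other Lin28b probes gave smaller differences (-2.28 and -0.61). Hk1, a hexokinase of high glucose affinity, was 28.7-fold higher in fetuses, although 1 of its 6 probes gave a difference of 1.11 in the other direction. The exception in the list was Cyp3a16, a cytochrome P450, which was 9.67-fold higher in mothers. Cyp3a16 belongs to a family of close copies whose probes may not separate them.

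Imprinted genes that act on fetal growth stood with this group. None of 20 was called higher in mothers and 12 were called higher in fetuses, with a median of -2.82. Among all genes 13.6% and 15.2% were called in these directions. In mothers 3 of the 20 were not well above background and entered through the fetal signal. Of 17 well above background in all 4 control channels, 10 were higher in fetuses. Igf2, the fetal growth factor (probe at chr7:149836673-149836709, mm9), gave 8.60 and 8.56 in mothers and 18.54 and 18.80 in fetuses, a 1091-fold difference with no overlap. H19, the noncoding RNA next to Igf2, gave 10.79 and 10.67 in mothers and 19.42 and 19.24 in fetuses, a 389-fold difference. Meg3, the noncoding RNA of the Dlk1 locus, was 263-fold higher in fetuses. Grb10, an adaptor that restrains insulin signalling, was 134-fold higher, and Cdkn1c, an inhibitor of cyclin-dependent kinases, was 71.6-fold higher. Maternally expressed H19, Meg3, Grb10 and Cdkn1c and paternally expressed Igf2 and Dlk1 were all higher in the fetal pool.

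Several genes of the postnatal growth axis were higher in mothers. Igf1, the growth hormone-dependent growth factor, gave 18.50 and 18.22 in mothers and 13.57 and 13.54 in fetuses, a 28.0-fold difference. The growth hormone receptor gene Ghr was 18.6-fold higher in mothers, the prolactin receptor gene Prlr 21.0-fold, and Igfals, which holds IGF in its circulating complex, 15.1-fold. Igf1r, the receptor for IGF, was 5.15-fold higher in fetuses, but its probes ranged from -0.06 to -4.17. Over the 19 genes of the axis, 7 were called higher in mothers and 2 in fetuses. The list's median was 0.38. With no scaling it was -0.16, where the median of all genes was -0.73; relative to all genes it lay between 0.33 and 0.65 over the 5 scalings.

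**Figure D2:**
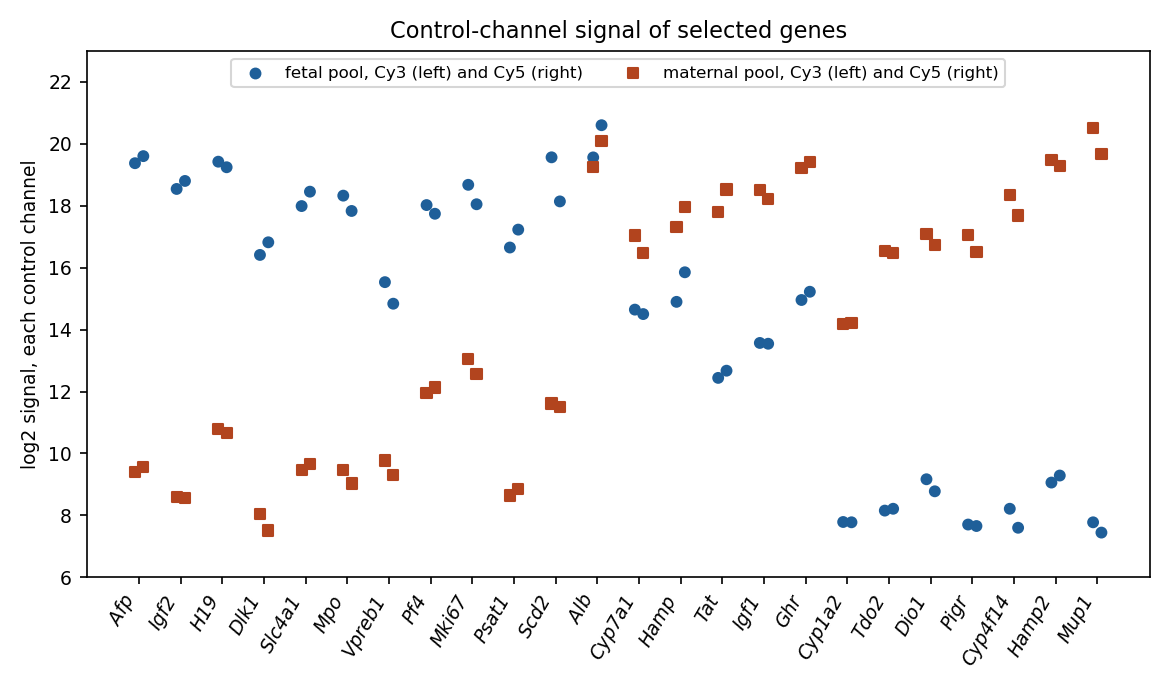
Log2 signal of 24 genes in each control channel; circles are the fetal pool, squares the maternal pool, and within a gene the left symbol is Cy3 and the right Cy5. For Afp and Igf2 the fetal channels lie near the top and the maternal ones below 10. For Alb the pools overlap across dyes, and for Mup1 the maternal channels lie above 19 and the fetal ones below 8.

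Of 24 hepatocyte plasma protein genes, 8 were called higher in mothers and none in fetuses, with a median of 0.46. The count depended on the scaling, with 14 higher in mothers under 75th percentile scaling (median 1.38) and 18 under median scaling (1.73). Serpina6, which encodes the corticosteroid carrier transcortin, was 13.3-fold higher in mothers, and the protease inhibitor gene Serpina3k 4.44-fold. Itih4 and Itih1, heavy chains of inter-alpha-trypsin inhibitor, were 5.49-fold and 3.49-fold higher, Cp (ceruloplasmin, a copper carrier) 3.99-fold and Serpina10 (an inhibitor of factor X) 3.57-fold. The other 16 genes, Alb among them, were not called with quantile scaling.

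Of 25 genes of apolipoproteins and lipoprotein handling, 6 were higher in mothers and 2 in fetuses, against 13.6% and 15.2% of all genes; over the 5 scalings 6 to 17 were higher in mothers. Apoa4 was 33.3-fold, Apon 27.5-fold, Apoc3 (an inhibitor of lipoprotein lipase) 15.1-fold and Apoa5 (an activator of lipolysis) 7.45-fold higher in mothers. Lpl, lipoprotein lipase itself, gave 13.43 and 13.70 in mothers and 17.53 and 17.63 in fetuses, 16.2-fold higher in fetuses. Its other probe gave a like difference (-4.65).

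Of 38 complement and coagulation genes, 15 were higher in mothers and 1 in fetuses, with a median of 0.66. Over the 5 scalings 10 to 31 were higher in mothers, with medians of 0.62 to 1.69. C4bp, a complement inhibitor, was 24.2-fold higher on its brightest probe, whereas its other probe gave a difference of 0.86. F7, which starts the extrinsic pathway of clotting, was 19.1-fold higher, F5 6.31-fold, and the mannose-binding lectin genes Mbl1 and Mbl2 4.79-fold and 4.26-fold. C8g was 4.09-fold higher in mothers. The gene that went the other way, named after its value was seen, was C8b, 3.72-fold higher in fetuses (14.44 and 14.65 in mothers, 16.51 and 16.37 in fetuses).

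Promoters were also searched for GTTAAT. This sequence, part of the site of hepatocyte nuclear factor 1, was present on either strand in 37.0% of 27 complement and coagulation promoters and 33.3% of 15 plasma protein promoters, against 5.62% of all. It was in 8.33% of 12 apolipoprotein promoters and in none of 17 acute phase promoters, and in 30.8% of 13 gluconeogenesis and 23.1% of 26 conjugation enzyme promoters, so it was not limited to secreted proteins. The promoter of Gc, the vitamin D-binding protein, which was not called, and that of C8a, 2.70-fold higher in mothers, show it in capitals (120 bases before the start, GRCm38.p6, - strand, chr5:89457899-89458018 and chr4:104876399-104876518).
Gc: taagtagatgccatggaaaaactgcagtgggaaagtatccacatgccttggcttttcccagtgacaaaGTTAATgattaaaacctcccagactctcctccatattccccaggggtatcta
C8a: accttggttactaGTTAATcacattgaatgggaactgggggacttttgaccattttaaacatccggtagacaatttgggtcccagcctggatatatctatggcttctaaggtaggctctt

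Acute phase genes, which the adult liver raises in inflammation, were more often higher in mothers than in fetuses. Of 24, 12 were higher in mothers and 4 in fetuses, against 13.6% and 15.2% of all genes. Orm1 and Orm2, which encode alpha-1-acid glycoproteins, were 358-fold and 308-fold higher in mothers and Orm3 at least 522-fold, though these close copies may share signal. Saa2 (serum amyloid A) was 116-fold higher; Saa1 was 3.29-fold higher on its brightest probe, but its other probe gave a difference of 8.45, so the size for Saa1 depends on the probe. In the other direction, A2m, the protease inhibitor alpha-2-macroglobulin, gave 5.47 and 6.06 in mothers, not well above background, and 19.71 and 18.41 in fetuses. That is at least 4276-fold on this probe, and the other A2m probe gave a smaller difference in the same direction (-3.63). Lcn2, a siderophore-binding protein also made by granulocytes, was 13.7-fold higher in fetuses.

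Hamp, which encodes the iron hormone hepcidin, was 4.79-fold higher in mothers (17.31 and 17.95 against 14.89 and 15.85). Hamp2, its close relative, gave 19.48 and 19.29 in mothers and 9.06 and 9.29 in fetuses, a 1185-fold difference. The copper transporter gene Atp7b was 5.96-fold higher in mothers. Tfrc, the transferrin receptor, and Hmox1, heme oxygenase, were 4.93-fold and 5.62-fold higher in fetuses. Over 29 genes of iron, copper and zinc handling, 8 were higher in mothers and 3 in fetuses, against 13.6% and 15.2% of all genes. Their median was 0.19. Over the 5 scalings 5 to 16 were higher in mothers, with medians of 0.19 to 1.28.

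Drug-metabolizing enzymes were mostly higher in mothers. Of 34 cytochrome P450 genes, 25 were called higher in mothers and 1 in fetuses, with a median difference of 2.83. Cyp4f14 gave 18.35 and 17.68 in mothers and 8.22 and 7.60 in fetuses, a 1103-fold difference. Cyp2b10, a target of the receptor CAR and well above background on 1 of 2 fetal arrays, was 643-fold higher in mothers, Cyp2b13 127-fold and Cyp2b9 101-fold. Cyp2c38 was at least 232-fold higher. Cyp1a2, which metabolizes caffeine, gave 14.18 and 14.20 in mothers and 7.79 and 7.78 in fetuses, 85.1-fold. The exception, named after its value was seen, was Cyp4a12a, 6.43-fold higher in fetuses, while its close copy Cyp4a12b was 7.68-fold higher in mothers. TATAAA lay on either strand in 72% of 25 P450 promoters against 11.4% of all promoters; it was also in 46.2% of 13 promoters of female-biased genes and 60.0% of 10 lung and muscle promoters. The promoter of Cyp2e1, the ethanol-oxidizing P450 (6.48-fold higher in mothers), carries it close to the start (chr7:140763699-140763818, GRCm38.p6, + strand).
Cyp2e1: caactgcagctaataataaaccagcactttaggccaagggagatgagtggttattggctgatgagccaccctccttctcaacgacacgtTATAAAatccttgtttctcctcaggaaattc

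Conjugation enzymes followed the P450 genes. Of 39, 29 were higher in mothers and 1 in fetuses, with a median of 2.41. The glutathione transferase gene Gsta2 was 431-fold, the sulfotransferase gene Sult3a1 255-fold and the glycine acyltransferase gene Glyat 148-fold higher in mothers. The glucuronosyltransferase genes Ugt1a9, Ugt2a3 and Ugt2b1 were 126-fold, 114-fold and 77.0-fold higher. Gstm5, named after its value was seen, was 4.05-fold higher in fetuses. Among all autosomal genes, the largest maternal differences also included Sult2a6 (755-fold), Ces1f (754-fold), a carboxylesterase, and Nnmt (676-fold), which methylates nicotinamide. The transporter gene Slc22a28 was at least 1759-fold higher and Sult3a2 at least 827-fold.

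Genes of bile acid synthesis and transport were higher in mothers in 20 of 30 cases and higher in fetuses in 1, with a median of 1.65. Cyp7a1, the rate-limiting enzyme of the classical pathway, gave 17.04 and 16.48 in mothers and 14.64 and 14.50 in fetuses, a 4.55-fold difference. Cyp7b1, of the alternative pathway, differed far more, at 167-fold. The organic anion uptake transporters Slco1a1, Slco1a4 and Slco2b1 were 146-fold, 78.8-fold and 64.6-fold higher in mothers. Abcg5, which exports sterols into bile, was 22.1-fold higher, and Nr0b2, the repressor of Cyp7a1 also known as SHP, 17.2-fold. Cyp39a1, named after its value was seen, was 2.75-fold higher in fetuses.

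Enzymes of the urea cycle and amino acid breakdown were higher in mothers in 35 of 45 genes and in fetuses in none, with a median of 1.65. Tdo2, which opens the tryptophan ring, gave 16.53 and 16.47 in mothers and 8.16 and 8.22 in fetuses, a 319-fold difference. Tat, the glucocorticoid-induced tyrosine aminotransferase, was 48.6-fold higher, Gpt (alanine aminotransferase) 21.0-fold, Sds (serine dehydratase) 20.0-fold, Prodh (proline dehydrogenase) 15.7-fold and the mitochondrial ornithine carrier gene Slc25a15 13.9-fold. Cps1 and Ass1 of the urea cycle differed little with quantile scaling, at 1.77-fold and 1.35-fold higher in mothers, and neither was called. Their values under the other scalings are not given here.

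The synthesis of serine, glycine and one-carbon units, a list added after the data were seen, pointed to the fetus. Of 19 genes, 12 were higher in fetuses and 2 in mothers, with a median of -1.91. Psat1 gave 8.65 and 8.84 in mothers and 16.65 and 17.23 in fetuses, a 293-fold difference, and Phgdh, the first enzyme of the pathway, was 201-fold higher in fetuses. Asns (asparagine synthetase) was 87.9-fold higher, and the mitochondrial folate enzymes Mthfd1l and Mthfd2 were 66.1-fold and 15.5-fold higher. The members higher in mothers were Shmt1 (3.23-fold) and Aldh1l1 (4.14-fold), which act in the cytosol. Aldh1l2, the mitochondrial counterpart of Aldh1l1, was 8.50-fold higher in fetuses.

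In carbohydrate metabolism, of 19 genes for glycolysis isoforms found outside hepatocytes, 11 were higher in fetuses and none in mothers, with a median of -1.62, and 8 were not called. The glucose transporter genes Slc2a3 and Slc2a1 were 46.6-fold and 11.9-fold higher in fetuses, the lactate exporter gene Slc16a3 39.5-fold, Hk2 8.27-fold and Aldoc 7.70-fold. Slc2a2, the glucose transporter of hepatocytes, had a difference of -0.00 and was not called.

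Gluconeogenesis and glycogen genes showed no common direction, with 5 of 22 higher in mothers, 2 higher in fetuses and a median of -0.00. Among all genes 13.6% and 15.2% were called in these directions. G6pc, the last step of glucose release, was 3.12-fold higher in mothers, Khk (ketohexokinase) 3.28-fold and Fgf21, a fasting hormone, 7.17-fold. Pck2, the mitochondrial phosphoenolpyruvate carboxykinase, was 9.39-fold higher in fetuses, as was Gyg, the primer of glycogen, at 3.10-fold.

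Of 35 genes of fatty acid oxidation and ketogenesis, 18 were higher in mothers and none in fetuses, with a median of 1.14. Over the 5 scalings 11 to 30 were higher in mothers. The thioesterase genes Acot3 and Acot4 were 17.4-fold and 7.52-fold higher, the peroxisomal thiolase gene Acaa1b 6.36-fold and the carnitine acyltransferase gene Crot 6.00-fold. Fatty acid synthesis was mixed, with 9 of 26 higher in mothers and 3 in fetuses; its median was 0.24, and 0.24 to 0.71 relative to all genes over the 5 scalings. Thrsp, a lipogenic protein, was 76.9-fold higher in mothers, Elovl5 6.68-fold and Me1 6.52-fold. Scd2, the stearoyl-CoA desaturase of fetal and neural tissue, gave 11.62 and 11.50 in mothers and 19.56 and 18.14 in fetuses, a 157-fold difference (246-fold on Cy3, 99.7-fold on Cy5). Scd1, the adult liver form, was 3.52-fold higher in mothers, and Elovl6 was 5.70-fold higher in fetuses.

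Cholesterol synthesis had a median of -0.03. Of its 23 genes, 2 were higher in mothers and 4 in fetuses, against 13.6% and 15.2% of all genes. Lss was 5.56-fold, Sqle 3.00-fold and Fdps 2.41-fold higher in fetuses. The other Fdps probe gave a difference of only -0.29. Acat2 and Insig2, which retains the sterol sensor in the endoplasmic reticulum, were 12.7-fold and 10.8-fold higher in mothers. CCAAT was present in 92.3% of 13 cholesterol synthesis promoters against 38.7% of all, and also in 76.9% of 13 clock gene promoters.

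**Figure D3:**
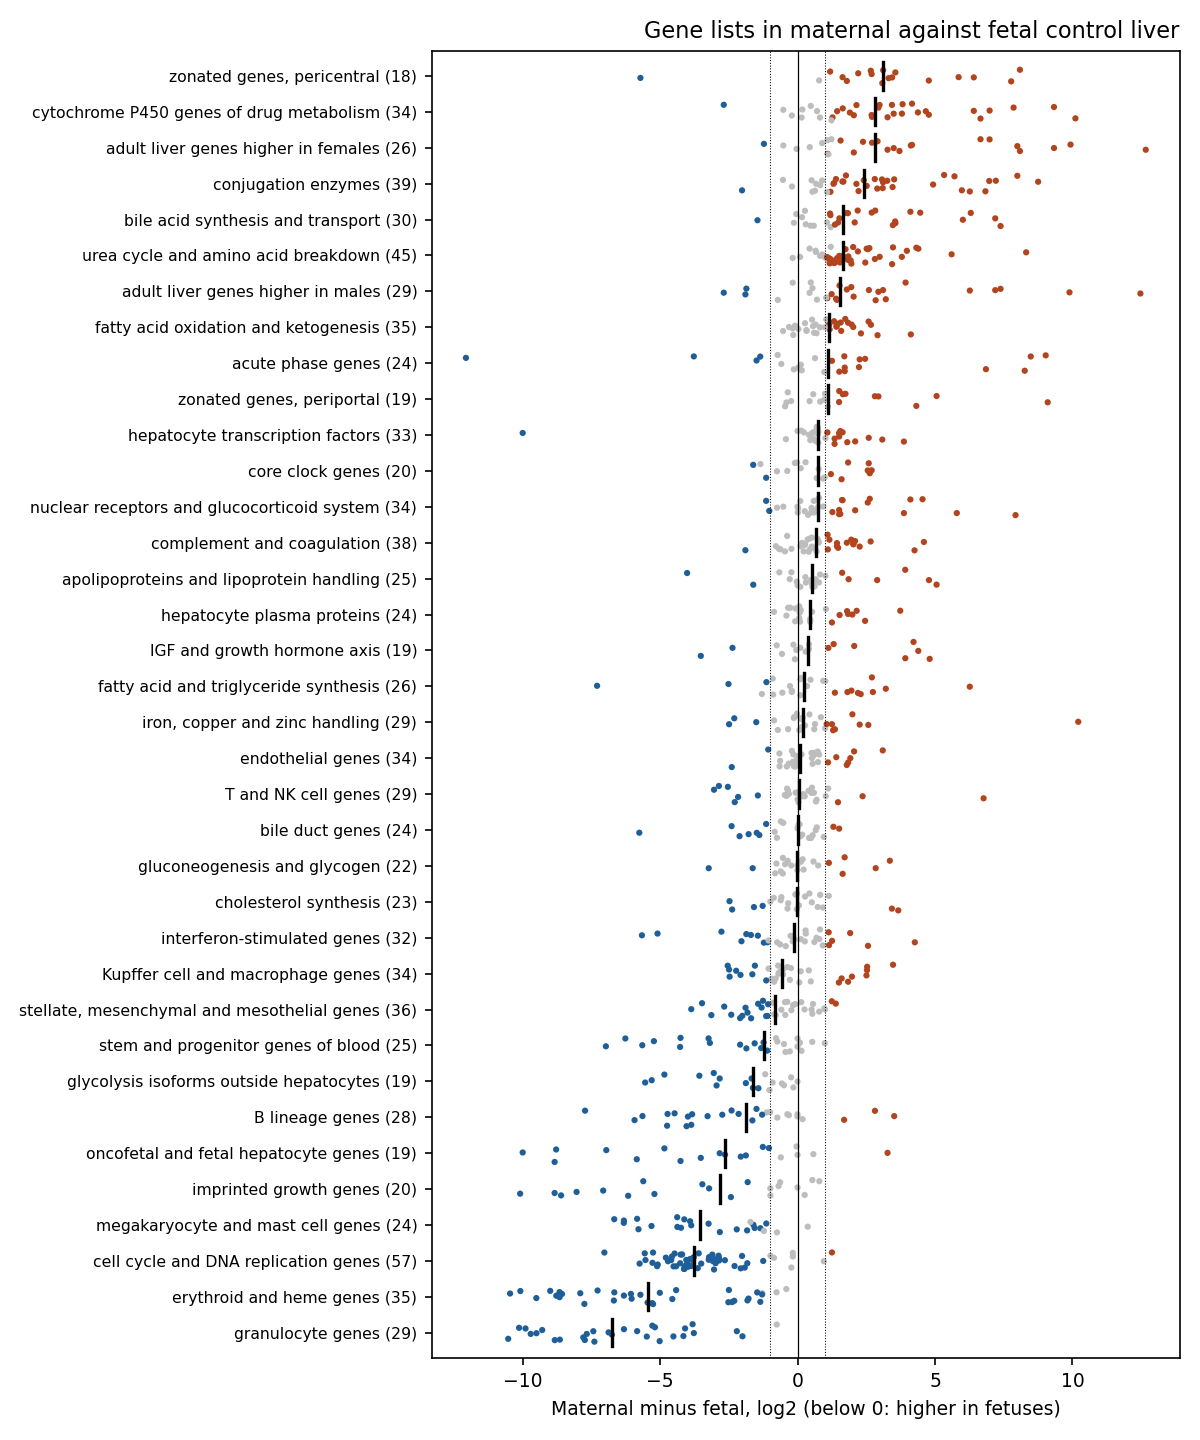
Maternal minus fetal difference (log2) of each autosomal member of 36 gene lists, ordered by list median; points are genes (red, called higher in mothers; blue, higher in fetuses; grey, not called), black bars the medians, dotted lines 2-fold, and the number of members stands after each name. Granulocyte, erythroid and cell cycle genes have the lowest medians (-6.75, -5.45 and -3.77), and pericentral and cytochrome P450 genes the highest (3.10 and 2.83).

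Genes that mark zones of the adult lobule were mostly higher in mothers. Of 18 pericentral genes, 16 were higher in mothers and 1 in fetuses, with a median of 3.10, and of 19 periportal genes, 9 were higher in mothers (9 to 16 over the 5 scalings) and none in fetuses, with a median of 1.10. The glutamate transporter gene Slc1a2 was 272-fold higher in mothers on its brightest probe, although 1 of its 5 probes gave -0.68. Aldh1a1 was 218-fold higher. The pericentral exception was Car2, carbonic anhydrase 2, which red cells also make, at 52.6-fold higher in fetuses. At the periportal end, Pigr, the receptor that carries IgA into bile, gave 17.06 and 16.50 in mothers and 7.71 and 7.66 in fetuses, 549-fold. Cyp2f2 was 7.68-fold and Hal 7.03-fold higher in mothers. The lists overlap with those of P450 and amino acid enzymes, and the difference between zones was not tested.

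Genes known to differ between the sexes of adult mouse liver were mostly higher in mothers whichever sex they favour. Of 26 genes listed as higher in adult females, 18 were higher in mothers and 1 in fetuses (median 2.81), and of 29 listed as higher in adult males, 19 were higher in mothers and 3 in fetuses (median 1.53). A1bg gave 17.97 and 17.73 in mothers and 5.23 and 4.84 in fetuses, not well above background, at least 6501-fold. Atp6v0d2, a proton pump subunit, was at least 272-fold higher. Among male-biased genes Mup1, a major urinary protein that binds pheromones, was 5679-fold higher in the female adults (20.50 and 19.66 against 7.78 and 7.45) and Sult5a1 15.2-fold. The 3 genes of the male list that were higher in fetuses, named after their values were seen, were Cyp4a12a (6.43-fold), C8b (3.72-fold) and Hsd3b5 (3.63-fold). Hao2, of the female list, was 2.34-fold higher in fetuses.

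All 6 major urinary protein genes with a probe, a list added after the data were seen, were higher in mothers. The differences ran from 945-fold for Mup4 to 13658-fold for Mup10, which was well above background on 1 of 2 fetal arrays. Its fetal mean of 5.02 lay below 5.30 and 5.06, the fetal signals used for bounds, so the size of its fold is uncertain. Mup5 was 4647-fold and Mup6 at least 7242-fold higher. These genes are near-identical copies, and their probes may share signal. Without spots flagged as non-uniform, 1 of the 6 was left, with a difference of 9.36.

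Of 33 listed transcription factors of hepatocytes, 12 were higher in mothers (8 to 25 over the 5 scalings), with a median of 0.75. The only one called higher in fetuses was Afp, which stood in this list as a target and is no transcription factor. Nr1i3, the drug receptor CAR, was 14.6-fold higher in mothers, Tbx3 8.47-fold, Nr5a2 4.28-fold and Foxa3 3.50-fold. The other Tbx3 probe gave a difference of only 0.56. Onecut1 was 2.86-fold higher in mothers on its brightest probe and lower on the other (-2.78), so it has no settled direction. Of 34 nuclear receptors and glucocorticoid-system genes, 14 were higher in mothers and 2 in fetuses, with a median of 0.73. Dio1, the deiodinase that activates thyroid hormone, gave 17.08 and 16.72 in mothers and 9.17 and 8.78 in fetuses, 244-fold. Rxrg was 55.4-fold and Esr1, the estrogen receptor, 23.4-fold higher in mothers, though another Esr1 probe gave 1.16.

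Of 20 clock genes, 7 were higher in mothers and 2 in fetuses; the median was 0.73, and 0.26 to 0.73 relative to all genes over the 5 scalings. Ciart was 6.48-fold, Dbp 6.02-fold and Nr1d2 5.87-fold higher in mothers. Per2 was 3.06-fold higher in fetuses on its brightest probe, but its other probe gave only -0.38. The time of day of collection is not given in the sources used here.

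Genes of blood formation were mostly higher in fetuses. Of 35 erythroid and heme genes, 32 were called higher in fetuses and none in mothers, with a median of -5.45; 8 were not well above background in mothers and entered through the fetal signal. Slc4a1, the anion exchanger of red cells, gave 9.47 and 9.66 in mothers and 17.99 and 18.45 in fetuses, 403-fold. Rhd and Kel, which carry the Rh and Kell blood groups, were at least 1406-fold and 1084-fold higher. Ermap, a membrane protein of red cells, was at least 725-fold higher, the membrane skeleton gene Epb42 at least 404-fold, and Trim10, an erythroid ubiquitin ligase well above background on 1 of 2 maternal arrays, 438-fold. Embryonic globins, named after their values were seen, were still apparent: Hbb-y was 66.8-fold and Hbb-bh1 38.2-fold higher in fetuses, while the adult globin gene Hba-a1 had a mean difference of 2.43-fold and was not called.

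Among granulocyte genes the median was -6.75, with 28 of 29 genes higher in fetuses and none in mothers; 8 were not well above background in mothers. Mpo, myeloperoxidase, gave 9.46 and 9.03 in mothers and 18.32 and 17.83 in fetuses, 455-fold. The antimicrobial granule genes Camp and Ngp were at least 1473-fold and 952-fold higher, Ltf (lactoferrin) 836-fold and Prg2 (eosinophil major basic protein) 625-fold. The gene not called was Csf3r, the receptor for granulocyte colony-stimulating factor (1.69-fold). Stefins, cysteine protease inhibitors of neutrophils and their precursors, were a list added after the data were seen: all 8 were higher in fetuses, from 379-fold for Stfa3 to at least 2988-fold for Cstdc4. Stfa2 was 1120-fold and Csta1 464-fold higher. They are close copies that may share signal, and a second Csta1 probe gave only -1.56. Without spots flagged as non-uniform, 1 of the 8 stefins was left, and it was not called.

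Megakaryocyte and mast cell genes were higher in fetuses in 20 of 24 cases and in mothers in none, with a median of -3.55. In mothers 2 of the 24 were not well above background and entered through the fetal signal. The von Willebrand receptor subunit gene Gp1ba, well above background on 1 of 2 maternal arrays, was 102-fold, Treml1 79.9-fold and the platelet chemokine genes Ppbp and Pf4 79.7-fold and 57.1-fold higher. AGATAA, a form of the GATA motif, was present on either strand in 44.4% of 18 promoters of this list and 36.8% of 19 erythroid promoters, against 8.38% of all. Other lists had like shares, among them acute phase (29.4% of 17), exocrine pancreas (30.8% of 13), stefin (37.5% of 8) and intestine and stomach genes (42.9% of 7). It is shown in capitals in the 120 bases before the start of Kel (chr6:41704326-41704445, - strand), Rhd (chr4:134864416-134864535, + strand) and the platelet glycoprotein gene Gp5 (chr16:30310782-30310901, - strand), all GRCm38.p6; Gp5 holds it on the other strand as TTATCT.
Kel: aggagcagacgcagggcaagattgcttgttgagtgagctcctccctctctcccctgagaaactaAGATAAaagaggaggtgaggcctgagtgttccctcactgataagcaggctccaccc
Rhd: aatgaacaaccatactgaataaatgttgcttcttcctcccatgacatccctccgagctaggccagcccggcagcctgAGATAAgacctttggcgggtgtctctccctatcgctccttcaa
Gp5: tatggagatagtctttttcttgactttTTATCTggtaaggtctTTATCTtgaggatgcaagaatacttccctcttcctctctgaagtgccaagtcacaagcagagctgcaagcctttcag

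Stem and progenitor genes of blood were higher in fetuses in 14 of 25 cases, with a median of -1.24, and 6 were not well above background in mothers. Gfi1b, a repressor of erythroid and platelet precursors, was 125-fold higher in fetuses, Lyl1 50.1-fold and Lmo2 19.3-fold. Myb, which progenitors need, was at least 76.8-fold higher on its brightest probe; 2 further probes gave -6.72 and -7.23, and the remaining probe gave 0.24. Of 28 B lineage genes, 17 were higher in fetuses and 3 in mothers, and 6 were not well above background in mothers. Vpreb1, part of the surrogate light chain of pre-B cells, gave 9.77 and 9.31 in mothers and 15.53 and 14.83 in fetuses, 49.9-fold. Its partner Igll1 was at least 60.9-fold higher on its brightest probe, while its other probe gave -1.11. The recombinase gene Rag1 was at least 26.5-fold higher, and its other probes gave -6.31 and -1.92. Those higher in mothers, named after their values were seen, were Dntt (11.4-fold), which adds nucleotides at V(D)J joints and is little used before birth, Jchain (7.04-fold), of secreted IgA and IgM, and Fcer2a (3.24-fold).

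Of 29 T and NK cell genes, 3 were higher in mothers and 6 in fetuses, against 13.6% and 15.2% of all genes. Their median was 0.04. Zap70, a kinase of the T cell receptor, gave 15.32 and 15.05 in mothers and 8.41 and 8.42 in fetuses, 109-fold, whereas Cd3e and Cd3d, the receptor's own chains, had differences of 0.21 and 0.17. Gzma, a granzyme, was 7.26-fold and the adaptor gene Lat 8.22-fold higher in fetuses.

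Genes of the liver's resident macrophages and vessels lay in both directions. Of 34 Kupffer cell and macrophage genes, 8 were higher in mothers and 8 in fetuses (5 to 9 and 5 to 17 over the 5 scalings). Their median was -0.57, and the shares of all genes were 13.6% and 15.2%. Those higher in mothers included Cd163, the scavenger receptor for haemoglobin (11.1-fold), and the antigen presentation genes H2-Aa (5.78-fold), Cd74 (5.76-fold) and Ciita (5.68-fold). Spic, a regulator of red pulp macrophages that recycle iron, was 5.82-fold and Hmox1 5.62-fold higher in fetuses. Of 34 endothelial genes, 7 were higher in mothers and 2 in fetuses, with a median of 0.07, against 13.6% and 15.2% of all genes. Median scaling gave 12 and 1, and no scaling 2 and 5, so the balance depends on the scaling. Clec1a was 8.57-fold, Bmp2, which induces hepcidin, 4.16-fold and Rspo3, an enhancer of WNT signalling, 3.78-fold higher in mothers. The other Rspo3 probe gave a difference of only 0.58. Lyve1, a hyaluronan receptor, was 5.25-fold higher in fetuses.

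Of 36 stellate, mesenchymal and mesothelial genes, many of them matrix genes, 16 were higher in fetuses (10 to 18 over the 5 scalings) and 2 in mothers, with a median of -0.82. Lox, which cross-links collagen and was well above background on 1 of 2 maternal arrays, was 14.6-fold, Col5a1 11.1-fold (its other probe gave 0.44), Col1a1 8.79-fold and Vim 5.32-fold higher in fetuses. The mesothelial genes Upk3b and Wt1 were 6.35-fold and at least 4.26-fold higher. Of 24 bile duct genes, 2 were higher in mothers and 7 in fetuses (4 to 10 over the 5 scalings), with a median of 0.02. The shares of all genes were 13.6% and 15.2%. Ggt1, gamma-glutamyltransferase, was at least 54.1-fold higher in fetuses, and the keratin genes Krt23 and Krt7 5.27-fold and 3.43-fold.

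Of 57 genes of the cell cycle and DNA replication, 50 were higher in fetuses and 1 in mothers, with a median of -3.77, and none was below background on both maternal arrays. Mki67, the proliferation marker, gave 13.04 and 12.56 in mothers and 18.67 and 18.04 in fetuses, 47.1-fold. The replication licensing gene Cdc6 was well above background on 1 of 2 maternal arrays; its measured difference was 130-fold (213-fold on Cy3, 79.8-fold on Cy5), and its maternal signals were 6.05 on Cy3, below the 7.32 used for bounds, and 7.29 on Cy5. Nusap1 and Ube2c, which act in mitosis, were 53.7-fold and 46.3-fold higher, E2f2 38.8-fold and Ccna2 38.2-fold. The other Nusap1 probe gave a smaller difference (-1.97). The gene higher in mothers was Ccnd1, cyclin D1 (13.96 and 13.69 against 12.54 and 12.60, 2.38-fold); it was named after its value was seen. Blood precursors and hepatoblasts both divide in fetal liver, and their parts in this list were not tested.

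Cell cycle promoters held CCAAT in 69.2% of 39 cases against 38.7% of all, TTTGAA, the core of the cell cycle homology region, in 41.0% against 14.6% (but also in 40.0% of P450 and 34.6% of conjugation enzyme promoters), and an E2F-like TTTCCCGC or TTTGGCGC in 17.9% against 2.55%, each on either strand. Top2a (34.5-fold higher in fetuses; chr11:99024190-99024309), Ccnb2 (15.9-fold; chr9:70421555-70421674) and Mcm6 (19.3-fold; chr1:128359706-128359825) are shown because they carry several copies. The windows are 120 bases before the start on the - strand of GRCm38.p6, with these motifs in capitals on either strand.
Top2a: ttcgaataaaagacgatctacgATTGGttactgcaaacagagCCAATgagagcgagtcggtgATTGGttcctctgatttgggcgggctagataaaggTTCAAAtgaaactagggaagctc
Ccnb2: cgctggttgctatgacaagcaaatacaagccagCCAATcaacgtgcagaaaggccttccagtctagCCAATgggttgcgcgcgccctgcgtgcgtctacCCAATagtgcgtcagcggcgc
Mcm6: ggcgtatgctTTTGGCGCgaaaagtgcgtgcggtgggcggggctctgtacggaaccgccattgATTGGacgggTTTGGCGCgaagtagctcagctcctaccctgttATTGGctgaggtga
Top2a and Ccnb2 hold 3 CCAAT boxes each in this window, and Mcm6 holds 2 along with 2 copies of TTTGGCGC.

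Promoter composition varied with the size and the direction of the difference. The ratio of observed to expected CpG dinucleotides had a median of 0.71 in genes not called, 0.45 in 228 genes called at least 16-fold higher in fetuses and 0.18 in 122 genes called at least 16-fold higher in mothers. Over all genes called at 2-fold the median was 0.68 in those higher in fetuses, close to genes not called, and 0.56 in those higher in mothers. Among lists, cell cycle promoters had a median of 0.87 and cytochrome P450 promoters 0.13, and erythroid and granulocyte promoters, at 0.30 and 0.16, were also below the 0.69 of all genes. The RefSeq table held exactly 1 promoter for 10957 of the autosomal genes, more than 1 for 2466, which were left out, and none matched for 3630.

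**Figure D4:**
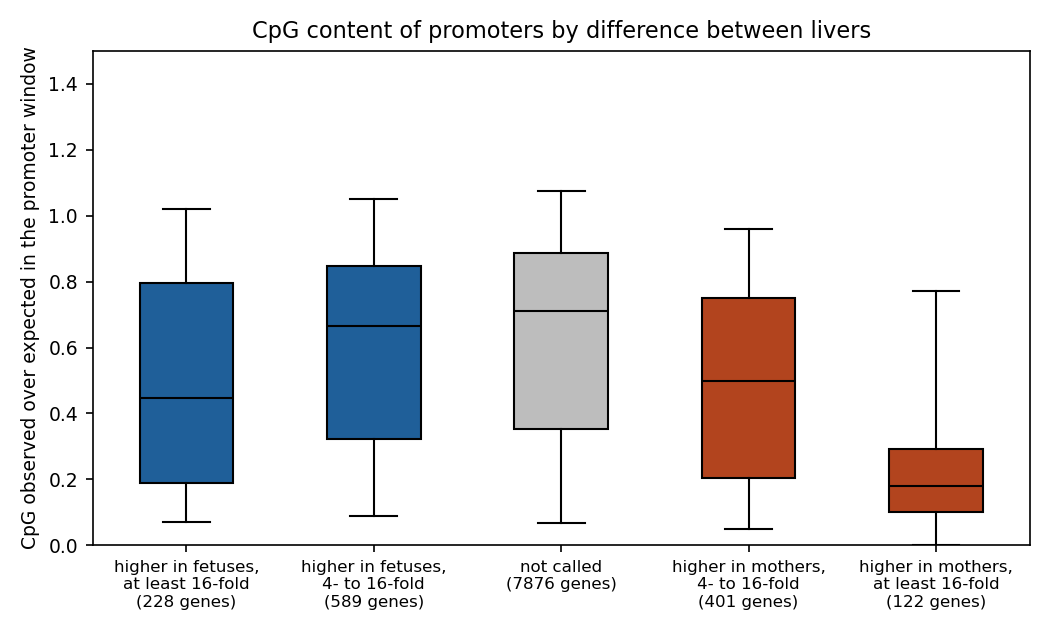
Observed over expected CpG in the 300-base promoter window of autosomal genes, by the size and direction of the difference between livers (mean over both dyes); boxes are quartiles with the median, whiskers the 5th and 95th percentiles, red higher in mothers and blue higher in fetuses. The median is 0.71 in genes not called, 0.45 in the genes at least 16-fold higher in fetuses and 0.18 in those at least 16-fold higher in mothers.

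Interferon-stimulated genes had no common direction, with 6 of 32 higher in mothers and 9 in fetuses (2 to 8 and 5 to 11 over the 5 scalings). Among all genes 13.6% and 15.2% were called in these directions. Slfn4 was at least 50.6-fold, Rsad2 (viperin) 34.1-fold and Isg15 6.81-fold higher in fetuses, and the chemokine gene Cxcl9 was 19.2-fold and Oasl1 5.91-fold higher in mothers. Rsad2 gave 12.17 and 11.87 in mothers and 17.47 and 16.76 in fetuses.

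Markers of neighbouring tissues were examined because small organs can adhere to a dissected liver. Of 16 exocrine pancreas genes that passed, 3 were higher in mothers and 5 in fetuses, against 13.6% and 15.2% of all genes. Cela1 (elastase 1) was 21.6-fold and Pnliprp1 15.3-fold higher in fetuses. Pnlip was 6.54-fold higher in mothers on its brightest probe, but its other probe gave only 0.69. Of 10 intestine and stomach genes, Tff3, a trefoil peptide, gave 9.33 and 9.14 in mothers and 17.33 and 17.67 in fetuses, 307-fold. The brush border gene Vil1, well above background on 1 of 2 maternal arrays, had a measured difference of 22.5-fold toward the fetus. The maternal mean of Vil1, 6.65, lay below 7.32 and 6.68, the maternal signals used for bounds. Fabp2, the intestinal fatty acid-binding protein, was 19.2-fold higher in mothers. Cdx2, Gkn1, Reg3b and Reg3g did not pass the filter in either liver. Of 11 kidney and adrenal genes, Aqp2 and Akr1b7 were 8.77-fold and 5.84-fold higher in fetuses and the others were not called. Of 14 lung and muscle genes, Myl1 was at least 14.4-fold and Acta1 5.85-fold higher in fetuses and Sftpc 3.04-fold higher in mothers, though its difference was -0.016 against the second fetal pool of 3. Of 8 placenta and yolk sac genes, Amn alone was called (4.01-fold higher in fetuses, above background on 1 of 2 maternal arrays). The part of other tissues in any difference was not tested.

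The maternal arrays were also set against the control channels of 2 further fetal pools of 3 animals each, hybridized on another slide and read with a later version of the scanner software. These comparisons share the maternal arrays and are not independent. Afp was 1485-fold and 1333-fold higher in those pools than in mothers (1023-fold in the pool of 6), Igf2 1802-fold and 1402-fold (1091-fold), Slc4a1 509-fold and 520-fold (403-fold), Mki67 42.9-fold and 43.1-fold (47.1-fold) and Scd2 105-fold and 104-fold (157-fold). Mup1 was 5633-fold and 5168-fold lower in them than in mothers (5679-fold), Igf1 38.1-fold and 36.2-fold lower (28.0-fold), Tdo2 352-fold and 456-fold lower (319-fold) and Cyp7a1 5.78-fold and 8.72-fold lower (4.55-fold). Some pancreas genes varied between fetal pools. Cpb1 had differences of -2.22 with the pool of 6 and -0.55 and -3.92 with the pools of 3, and Clps of -2.44, -1.50 and -4.42. Over measured genes the difference moved by a median of 0.28 and 0.31 log2 units when these pools replaced the pool of 6.

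The sign of a list's median held under all 5 scalings of the channels for most lists, among them the erythroid list (-6.31 to -4.60), the cell cycle list (-4.35 to -2.96), the imprinted list (-3.54 to -1.88), the P450 list (2.80 to 3.87) and the amino acid list (1.58 to 2.65). The median of all genes moved with the scaling too. Relative to it, the median changed sign for gluconeogenesis (-0.04 to 0.71), cholesterol synthesis (-0.03 to 0.37), T and NK cells (-0.18 to 0.04), bile duct (-0.03 to 0.05) and exocrine pancreas (-0.36 to 0.10). It kept its sign relative to all genes, though not by itself, for the IGF axis, fatty acid synthesis, clock genes, Kupffer cells and macrophages (-0.57 to -0.24), endothelium (0.05 to 0.34) and interferon-stimulated genes (-0.14 to -0.01).

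**Figure D5:**
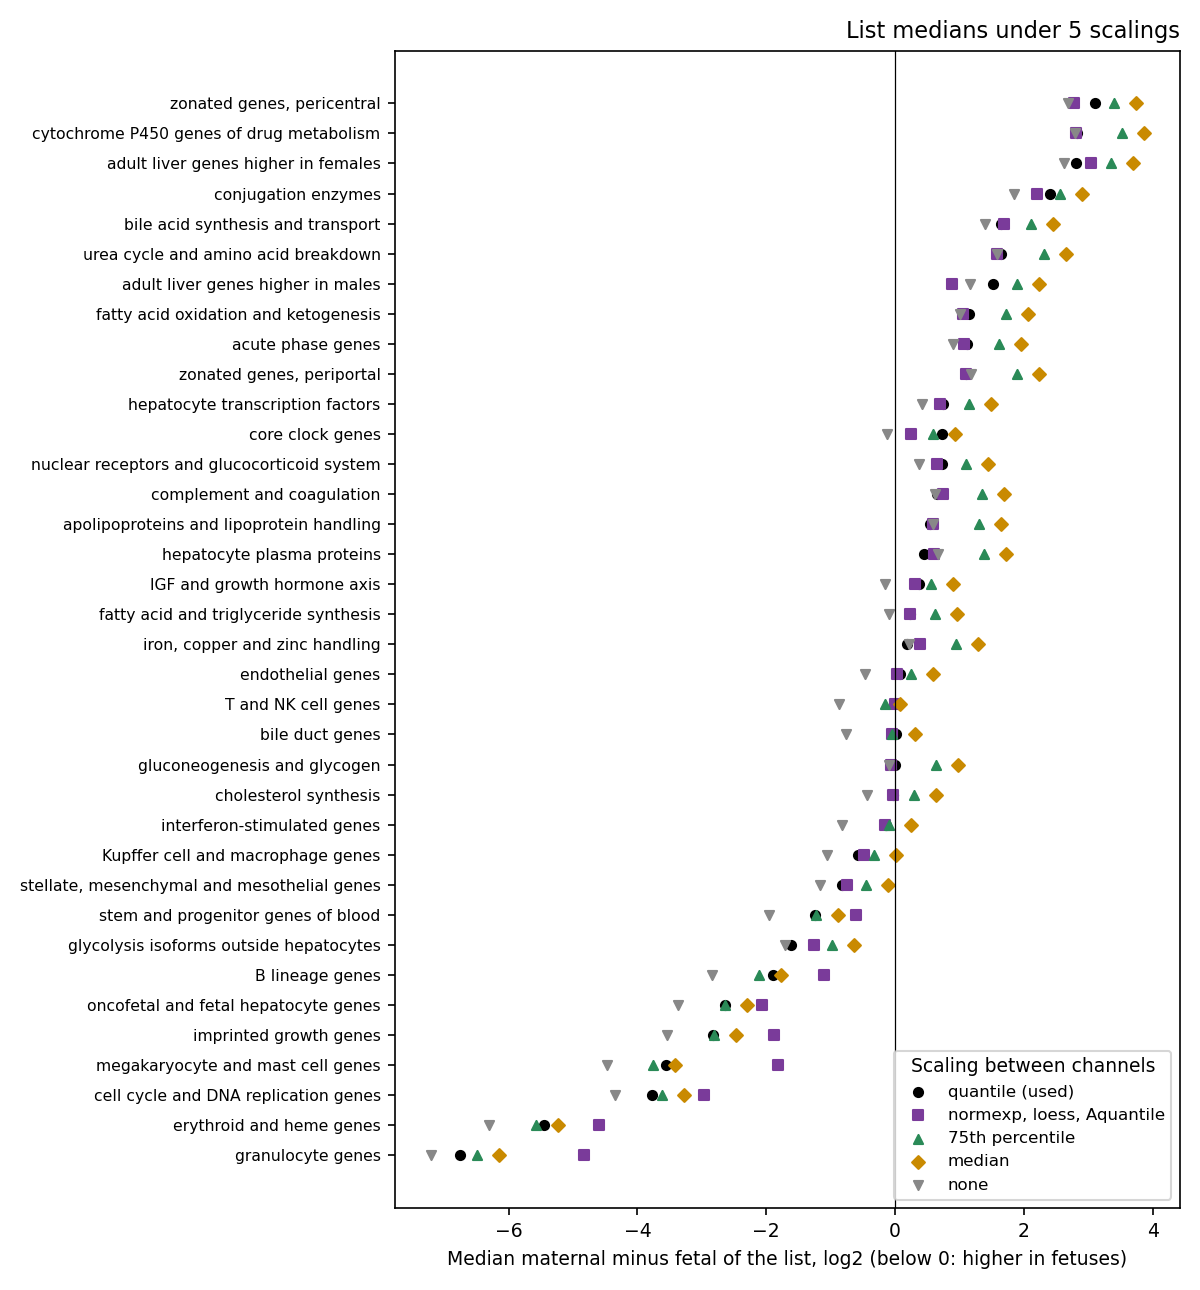
Median maternal minus fetal difference (log2) of 36 gene lists under 5 ways of scaling the channels; symbols are scalings and rows are lists in the order of the quantile-normalized medians. Erythroid, granulocyte, B lineage, cell cycle, imprinted and oncofetal lists stay below 0 and the P450, conjugation, bile acid, amino acid and pericentral lists above 0 under all 5, while 10 lists in the middle change sign between scalings, 4 of them also relative to the median of all genes.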

How the data were processed

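Each array file holds Cy3 and Cy5 intensity values per spot, written by Agilent Feature Extraction, per the file headers. Slide 1 was read with version 9.5.3.1, also given in the submitters' processing notes, and slide 2 with 11.0.1.1. The deposited intensity used here is the processed signal, background-subtracted and dye-normalized by that software. The deposited value table (8 columns) was not used. Processed signals of the 4 control channels were log2-transformed and quantile normalized with Python 3.11.15, numpy 2.4.6 and pandas 2.3.3; population outliers and control spots were left out, non-uniform spots were kept (5118 and 8119 in the maternal and fetal Cy3 channels), and spots of a probe were averaged. A probe passed if well above background on both arrays of a group. Each gene was read from its brightest passing probe. Names came from RefSeq (GRCm38.p6) by accession (27021 probes), symbol (5016) or older symbol (794); 8343 probes matched no gene and were left out. Probe positions are those of the array annotation (mm9).

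No test fits 1 pool a group, and the number of arrays limits the precision. The call rule was tried on simulated differences in genes of middle maternal signal. That trial does not cover dim genes, bounds or the largest folds, and no result here rests on it. The text names the 15 largest measured differences and 10 largest bounds each way as far as space allowed (some genes are not reported here), up to 6 genes of each list by size, and genes set in advance by name (Afp, Igf2, Vpreb1, Myb, Saa1, Alb, Xist, Ddx3y, Cyp7a1, Igf1, Hamp). The members, lists and rules were chosen with earlier results of these data known. The 3 lists of one-carbon, stefin and major urinary protein genes, and genes set beside others as isoforms, copies or exceptions, were chosen after their values were seen. Alternatives were other backgrounds and scalings (normexp with offset 50, limma 3.58.1 in R 4.3.3), filters, probes, dyes, thresholds and fetal pools.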

Additional observations from a re-analysis of the deposited data

How the results depend on the processing

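The balance between directions rested on the scaling. With median scaling 3889 genes were called higher in mothers, 65.2% of the calls, and the median difference was 0.26; with no scaling 1077 were called higher in mothers and 5865 in fetuses, 15.5% of the calls were maternal, and the median was -0.73. With normexp 1536 genes were called higher in mothers, and at 4-fold 764 and 1140. Under the other settings the counts stayed within 1.5 times. Directions turned for Tff2 (-0.061 with no scaling), Onecut1 (-2.78 without non-uniform spots, -0.63 over all probes), Myb (0.24 where all 4 channels had to be well above background), Alpi (-0.038) and Myh2 (-0.27) over all probes, Sftpc (-0.016 with the second pool of 3), and the periportal median (-0.55 without non-uniform spots, which left 2 genes). The values of -2.78 for Onecut1 and 0.24 for Myb are those of another probe of the gene. Values over all probes average the probes of a gene. The cause of the other turns was not tested. No other called gene turned among those followed across settings, which are the named genes counted below. Other genes in the text, among them Cyp4a12a, C8b, Gstm5, Scd1, Ccnd1 and Top2a, were not followed. Of the 251 named genes called, 231 kept the call with normexp, 247 with median scaling and 241 with no scaling, but the difference itself moved by more than the spread between dyes for 174, 150 and 188 of the named genes. With normexp the median of the major urinary proteins was 9.13 (12.33 with the processed signal) and that of megakaryocyte and mast cell genes -1.83 (-3.55). Without non-uniform spots 123 named genes could not be measured. Lists shrank as well, to 1 of 8 stefin, 1 of 6 major urinary protein and 2 of 24 plasma protein genes. Of 45 amino acid genes 5 were left, and all 5 were higher in mothers. Of 34 P450 genes 7 were left, 6 higher in mothers and 1 in fetuses. Signal over background limited the maternal side most, with 1406 genes given only as bounds. No paired analysis was possible because each group was 1 pool.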
